A study of Mus musculus with 21 samples.

Results

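In embryoid bodies made from mouse embryonic stem cells, 1802 of 51264 merged regions of open chromatin (3.52%) were new in endothelial progenitors (EPC) alone after induction of the transcription factor Sox7. These regions had an ATAC-seq peak in both lists from doxycycline-treated EPC, in none of the 4 lists from untreated cells, and in at most 1 of the 2 lists from doxycycline-treated cardiac progenitors (CPC). ATAC-seq maps open chromatin by transposase insertion, and regions were formed by joining peaks of the 8 ATAC lists that overlapped by 1 bp or more. The members were chosen by the presence of peaks in these 8 lists, so every ATAC value of theirs is a description without a test. With the EPC lists alone, 3139 regions (6.12%) were present in both induced lists and absent from both uninduced ones, and members were 57.4% of these. The word alone describes the rule: 1292 members (71.7%) had no peak in either induced CPC list, and 510 (28.3%) had a peak in 1 of them, 296 in CPC list 1 and 214 in CPC list 2.

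All samples came from 1 line, A2lox-Sox7-Myc, derived from E14Tg2a cells, which makes Myc-tagged Sox7 when doxycycline is added, and all were taken at day 4 of embryoid body culture. The ATAC groups were uninduced CPC (no doxycycline), induced CPC (doxycycline at 1 µg/ml for 24 h), uninduced EPC and induced EPC, with 2 samples each. CPC were sorted as PDGFRα+FLK1+ and EPC as PDGFRα−FLK1+ according to the sample characteristics, while the growth protocol also names PDGFRα+FLK1−. Anti-Myc ChIP-seq used unsorted cells, with 4 samples without doxycycline, 4 with doxycycline at 1 µg/ml for 24 h, and 1 input. Because the ChIP cells were not sorted, a ChIP peak cannot be assigned to EPC or CPC. In the sorted ATAC samples, opening in more cells and wider opening per cell cannot be told apart.

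Sox7 belongs with Sox17 and Sox18 to the SOXF group of transcription factors, which bind DNA through a high mobility group domain at sequences related to AACAAT. SOXF factors act in the formation of vessels from FLK1-positive mesoderm, and Sox7 and Sox17 also act in endoderm. Regulatory regions far from promoters often open in 1 cell type only, while promoters tend to be open in many.

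The labelled cell types were compared with the ATAC peaks at marker genes. Fli1, an ETS factor of endothelial and blood cells, had 6 and 4 regions with a peak in the uninduced EPC lists, 4 and 3 in the induced EPC lists, none in the uninduced CPC lists, and 1 and none in the induced CPC lists. Gata1, a factor of red cells and megakaryocytes, had 1 region in each of the 4 EPC lists and none in the 4 CPC lists. Not all markers separated the cell types in this way. Etv2 had 1 region in every list. Pecam1 had 1 and 1 regions in the induced EPC lists and 2 and 4 in the induced CPC lists, and Runx1 had 4 and 4 against 7 and 5. Of the sorting genes, Kdr had 3 to 5 regions in the EPC lists and 2 to 4 in the CPC lists. Pdgfra had 1 to 3 in EPC and 2 or 3 in CPC. The 6 endothelial markers together had 15 to 20 regions in the EPC lists, 5 in each uninduced CPC list and 12 in each induced CPC list. The cardiac markers, 5 in number, did not separate the cell types, with 13 to 19 regions in the EPC lists and 14 to 19 in the CPC lists. Of the 4 endoderm markers, Afp had no region in any list, and the summed number of regions was 4 in each uninduced EPC list and 9 and 12 in the induced ones, and in CPC 7 and 5 without and 11 and 9 with induction. The 5 blood markers had 15 and 19 regions in the uninduced and 18 and 19 in the induced EPC lists. In CPC these markers had 11 in each uninduced list and 16 and 13 in the induced lists. The part of other cell types in the new regions was not tested.

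The ATAC lists held 23068 to 30732 peaks, the ChIP lists 772 to 2807 and the input list 689. The number of reads behind a list is unknown, and a peak can be missing from a list because the library was shallower. The induced EPC lists were longer (28915 and 30732 peaks) than the uninduced ones (27934 and 23694), and with all 8 lists cut to the same length the rule left 1088 members. Of the 772 peaks in uninduced ChIP list 4, 75.8% began at the same base as a peak of list 2, while other pairs of ChIP lists reached 1.04% at most, so these lists were treated as a single library.

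The promoter windows below show the letters of start sites that lay inside members. RefSeq windows on GRCm38.p6 run from 250 bases before to 50 bases after a transcription start, and 81 of 32851 windows (0.247%) overlapped a member. They belonged to 73 members and 76 genes, 52 of them protein-coding. Sox1, which encodes a SOX factor of the early neural plate, is the promoter among the studied gene lists. Plekhg5, which encodes a guanine nucleotide exchange factor, and Spag6, which encodes a protein of the ciliary axoneme, are shown because their windows hold ACAATGG. Both were chosen after their values were seen. The capitals mark matches to AACAAT or ACAATGG on either strand, and these letter strings share ACAAT, so 1 site can match both. All windows are given 5′ to 3′ along the transcribed strand, Sox1 on the plus strand at chr8:12395269-12395568, Plekhg5 on the plus strand at chr4:152096469-152096768 and Spag6 on the plus strand at chr2:18698772-18699071.
Sox1: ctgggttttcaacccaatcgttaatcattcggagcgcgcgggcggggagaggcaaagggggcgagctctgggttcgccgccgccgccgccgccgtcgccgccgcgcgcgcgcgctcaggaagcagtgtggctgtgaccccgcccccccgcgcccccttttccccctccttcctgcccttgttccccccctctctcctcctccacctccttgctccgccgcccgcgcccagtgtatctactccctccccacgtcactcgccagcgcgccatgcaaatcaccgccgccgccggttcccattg
Plekhg5: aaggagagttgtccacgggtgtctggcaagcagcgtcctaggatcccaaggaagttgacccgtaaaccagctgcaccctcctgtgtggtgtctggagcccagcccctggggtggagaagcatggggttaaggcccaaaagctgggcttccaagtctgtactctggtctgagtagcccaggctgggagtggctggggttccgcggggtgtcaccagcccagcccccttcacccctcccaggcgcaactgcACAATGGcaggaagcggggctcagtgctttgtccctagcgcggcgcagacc
Spag6: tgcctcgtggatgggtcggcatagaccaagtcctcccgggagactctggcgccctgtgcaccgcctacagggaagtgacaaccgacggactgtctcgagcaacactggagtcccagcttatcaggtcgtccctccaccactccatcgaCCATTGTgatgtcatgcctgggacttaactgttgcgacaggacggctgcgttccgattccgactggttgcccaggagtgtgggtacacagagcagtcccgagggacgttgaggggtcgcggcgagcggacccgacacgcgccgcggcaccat

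The Sox1 window lay wholly inside a member (chr8:12394730-12395896) with scores of 182.62 and 142.22 in the induced EPC lists and no peak in either induced CPC list. The score is the peak caller's own value from the authors' lists, a log-scaled p-value in the MACS 1.4 format, higher for smaller p, and it depends on depth. For Plekhg5 the scores were 194.94 and 142.34, with no induced CPC peak. At Spag6 they were 111.14 and 106.68, and induced CPC list 1 had a peak of 64.34. None of the 73 members over a promoter window had a peak in any induced ChIP list, beside 11.8% of all members and 4.75% of all ATAC regions with a peak in at least 1.

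Letter strings were counted in all 81 windows and set beside all windows of that length. ACAATGG stood in 9 of the 81 windows (11.1%), in 3.66% of all windows and in 1.77% of the windows over regions open in all 8 lists. AACAAT stood in 13.6%, 10.7% and 4.81% of these windows, in the same order. The string AGGAAGT, bound by ETS factors, stood in 12.3%, 9.35% and 7.63%. Other strings were AGATAA of GATA factors (6.17%, 11.2% and 4.90%), GGAATG of TEAD factors (16.05%, 14.7% and 10.8%) and TGTTTAC of forkhead factors (2.47%, 3.65% and 2.36%). The remaining ones were TGANTCA of AP-1 (6.17%, 7.81% and 3.60%), ATGCAAA of OCT factors (2.47%, 4.63% and 3.29%) and CANNTG, the E-box (72.8%, 72.3% and 59.98%). All were searched on both strands. The windows on members had a median GC content of 55.7%, against 62.3% for regions open in all 8 lists and 52.7% for all windows. A match is only a run of letters in a window that overlapped 1 of 73 members among 1802, and some windows lay partly outside their member. The Gm30575 window, with 2 matches, had 15 of its 300 bases inside its member. The sequences of the other members were not analysed here.

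Most members were peaks of modest score. In induced EPC list 1 the scores ran from 50.04 to 729 with a median of 78.7, and in list 2 from 50.03 to 711.83 with a median of 87.8. All regions with a peak in these lists had medians of 154 and 152, and regions open in all 8 lists had medians of 409 and 442. Members were thus among the lower peaks of both lists. A score of 100 or more in both lists was reached by 398 members (22.1%), and 586 (32.5%) were under 60 in at least 1 list. Regions new in both cell types, 593 in number, had medians of 109 and 121 in the EPC lists. The median width of members was 861 bp (460 to 2008 bp), against 945 bp over all regions.

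The 2 induced EPC lists ranked the members alike in part. Across members, which are not replicates and share 2 libraries, log2 scores had a Pearson's r of 0.60 and a Spearman's rank correlation of 0.50. Scores lay within 2-fold of each other in 1639 members (91.0%), and 1041 members scored higher in list 2 and 760 in list 1. The 510 members with an induced CPC peak had higher EPC medians (88.7 and 98.4) than the 1292 without one (76.3 and 84.0). Their CPC peaks were low, with medians of 68.4 in list 1 (n = 296) and 69.6 in list 2 (n = 214).

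**Figure D1:**
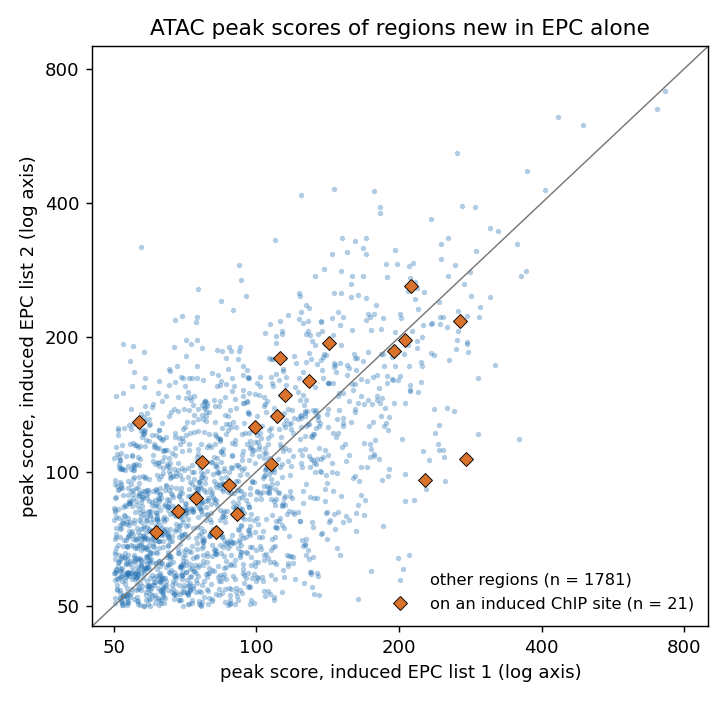
ATAC peak scores of the 1802 members in induced EPC list 1 (horizontal, log axis) and induced EPC list 2 (vertical, log axis), with 1 point per region and the line of equal scores. The 21 members on an induced ChIP site (diamonds) lie between mean scores of 67.18 and 243.355, while the highest points, up to 729 and 711.83, are not on such a site.

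The edge of the rule was not a gap in the scores. The lowest members, a region on chromosome 5 and regions at Map4k5, Cachd1, Rnf220 and Dgat2l6, had 50.03 or 50.04 in 1 induced EPC list and 57.84 to 82.88 in the other. Just outside were regions with a single peak of 50.02 in 1 induced EPC list, among them those at Cystm1, Alx4, Ctnna2 and Bcl9l. In all, 4850 regions missed the rule only by having a peak in 1 instead of 2 induced EPC lists. Their median scores were 60.8 in list 1 (n = 1947) and 62.4 in list 2 (n = 2903).

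The highest scores were at genes of varied function. A region 41.6 kb from Adamts18, which encodes a secreted metalloprotease, had 729 in EPC list 1 and 711.83 in EPC list 2, and 81.14 in CPC list 2. Inside Nav2, a cytoskeletal gene of neurite growth, 1 region had 699.64 and 648.35 and no CPC peak. Inside Agbl4, which encodes a carboxypeptidase acting on tubulin, the values were 489.66 and 598.31. In these 3 regions both EPC lists gave peaks far above the medians of members.

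Rasd2, a gene for a Ras-like GTPase, had a region 18.7 kb away with 433.13 and 622.55. The region inside Immt, which encodes an inner mitochondrial membrane organiser, had 371.87 and 471.75. A region 44.6 kb from Tiam2, which encodes an exchange factor for Rac, had 405.85 and 427. The other 4 of the top 10 lay at 2410004B18Rik, Fbxl17, Nmt2 (a protein myristoyltransferase) and Cd63 (a tetraspanin of endosomes), with mean scores of 334.97 to 392.315. None of those 9 regions after Adamts18 had an induced CPC peak, and Immt was the only 1 of the 10 with a ChIP peak, at 59.16 in induced ChIP list 3 and 45.31 in list 4.

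Anti-Myc ChIP peaks, which the rule did not use directly, lay on members in every induced list. Of the 1802 members, 62 had a peak in induced list 1 (3.44%), 32 in list 2 (1.78%), 191 in list 3 (10.6%) and 19 in list 4 (1.05%). Over all ATAC regions the shares in the same lists were 2.15%, 1.90%, 3.98% and 1.60%, so members lay above them in lists 1 and 3 and below them in lists 2 and 4. In the uninduced lists the numbers of members were 3, 4, 3 and 2. The rule leaves out every region with an ATAC peak without doxycycline. Uninduced ChIP peaks lay on 2.54% to 2.80% of the regions open in all 8 lists. The low uninduced share on members is thus not independent of the rule, and the test below cannot separate the 2. All 4 induced lists were above all uninduced lists. The mean was 4.22% ± 4.37 (SD, n = 4) in induced libraries and 0.166% in each of the 3 uninduced libraries, a difference of 4.05 percentage points. The two-sided exact permutation p was 0.0571, also after Benjamini-Hochberg adjustment over the 2 ChIP measures, and this is the smallest p that 4 against 3 libraries can give. Without induced list 3, the longest, the difference was 1.92 percentage points. With ChIP lists of equal length it was 0.828, and with ChIP scores of 100 or more 0.763. The labels do not tell whether replicates came from separate cultures. The p therefore reflects only that the values of these samples did not overlap between the groups, possibly for technical reasons.

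The induced lists also gave a larger part of their own peaks to members. It was 4.10%, 1.73%, 6.84% and 1.79% of peaks in induced lists 1 to 4, and 0.323%, 0.394%, 0.283% and 0.259% in the uninduced lists. The means were 3.62% ± 2.42 (SD, n = 4) and 0.311% ± 0.024 (SD, n = 3), with the same exact permutation p of 0.0571. The limit set by the rule on uninduced peaks holds here too. Among 305 pairs of an induced ChIP peak and a member, the centres lay a median of 69 bp apart, and 95.4% were within 250 bp.

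**Figure D2:**
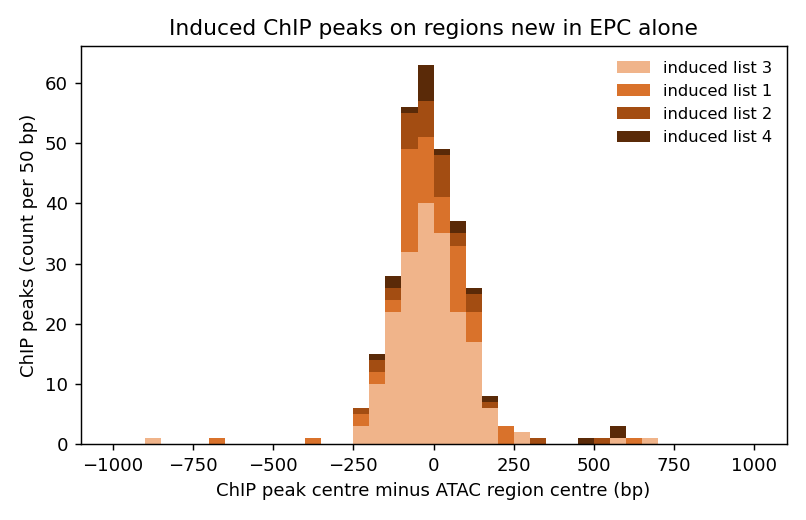
Distance in bp from the centre of a member to the centre of an induced ChIP peak on it (horizontal) against the number of peaks per 50 bp (vertical), stacked by induced ChIP list, over 305 pairs. The peaks gather around 0, with 95.4% within 250 bp, and most of them come from induced list 3.

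Counted over the 4 induced lists, 212 members (11.8%, exact 95% interval 10.3 to 13.3) had a peak in at least 1, beside 4.75% of all ATAC regions. A peak in an uninduced list lay on 7 members (0.388%), beside 1.69% of all regions. Of the 212, 150 were in 1 induced list, 40 in 2, 14 in 3 and 8 in all 4. Most of the 212 members thus had their ChIP peak in a single list. An induced ChIP site, a merged ChIP region with a peak in at least 3 induced libraries and in no uninduced one, was rarer: 235 of 4548 ChIP regions (5.17%) met this. It lay on 21 members (1.17%, exact 95% interval 0.723 to 1.78), beside 0.414% of all ATAC regions. Without induced CPC list 2 in the rule, the number was 13. These intervals cover counting error only. In the authors' deposited list of 666 Sox7 regions, 54 members (3.00%) had an overlap, beside 0.942% of all ATAC regions. The authors' deposited list of 117 Sox7 and Gata4 regions overlapped 2 members (0.111%), beside 0.217% of all regions.

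Members were compared with the mirror set, 1356 regions new in CPC alone. In induced ChIP lists 1 to 4 the share with a peak was 3.44% against 0.885%, 1.78% against 1.18%, 10.6% against 4.72% and 1.05% against 0.516%, EPC first. The EPC share was higher in 4 of 4 lists, by a mean of 2.39 ± 2.51 percentage points (SD, n = 4), from 0.538 to 5.88. The two-sided exact sign-flip permutation p was 0.125, the smallest that 4 pairs can give. With the 4 induced lists cut to equal length the difference was 0.349 (exact p = 0.375), and without list 3 it was 1.23. It also depended on the ATAC lists. Without induced EPC list 1 or 2 it was 0.725 or 0.990 where a peak in the remaining list kept a region out of the CPC-alone set, and -2.03 or -1.63, the CPC share being higher, where the rule's limit of 1 list was read literally and nothing kept it out. An induced site lay on 7 of the CPC-alone regions (0.516%), and a peak in at least 1 induced list on 71 (5.24%).

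ChIP peaks were also counted on regions new in both cell types: 22 of 593 (3.71%) lay on an induced site and 165 (27.8%) had any induced peak. Members with 1 induced CPC list had 13 sites among 510 (2.55%), and those with none had 8 among 1292 (0.619%). Any induced peak was on 16.7% and 9.83% of them. Of the near-miss regions with 1 induced EPC list, 15 of 4850 (0.309%) were on a site. Among 606 regions lost in EPC alone no region was on a site, which allows a share of up to 0.495%. Differences between these sets other than the one between the EPC-alone and CPC-alone regions were not tested.

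**Figure D3:**
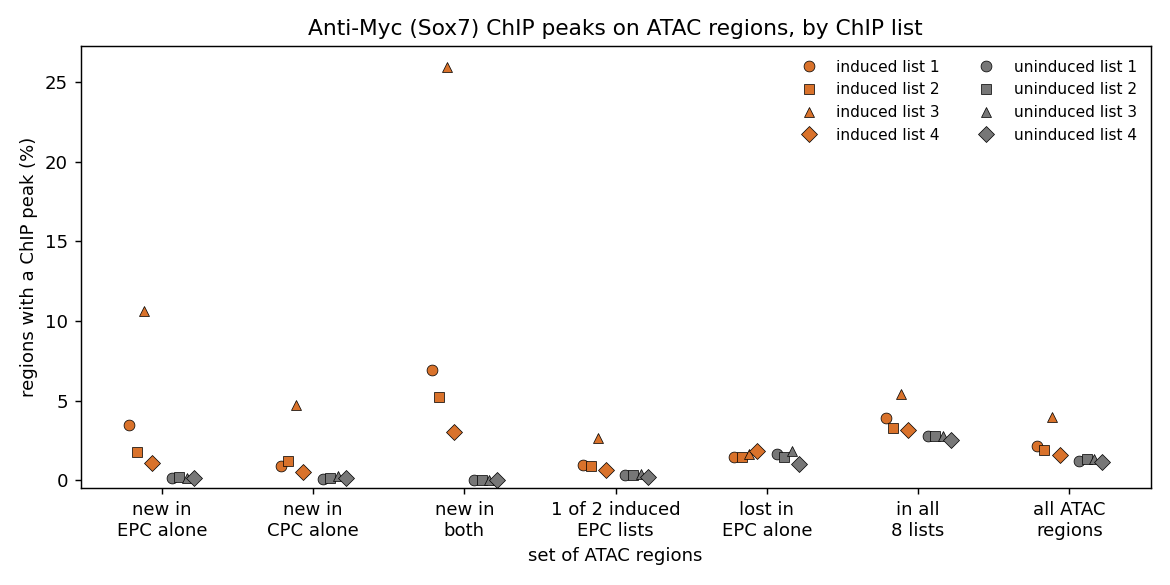
Share of ATAC regions with an anti-Myc ChIP peak (vertical, %) for 7 sets of regions (horizontal), with 1 point per ChIP list, 4 induced (orange) and 4 uninduced (grey). For regions new in EPC alone the induced lists lie between 1.05% and 10.6% and the uninduced lists at 0.222% or lower, and induced list 3 is the highest point in all sets but the regions lost in EPC alone.

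ChIP peaks were more frequent on members of higher ATAC score. Any induced peak lay on 6.63% of the 649 members with a mean score from 50 to 75, on 8.12% of 517 from 75 to 100, on 16.8% of 392 from 100 to 150, and on 25% of 244 at 150 or more. The induced sites numbered 2, 6, 6 and 7 in these bands. CPC-alone regions in the same bands of their own mean score had 2.81%, 5.48%, 5.56% and 14.2%. These bands were chosen after the data were seen.

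Of the 21 members on an induced site, some had no protein-coding gene within 50 kb, and the others lay inside or near 15 named genes of varied function. Of these genes 3 are described first, and they were picked after their values were seen. Inside Ets1, which encodes an ETS factor of endothelial cells, the region chr9:32692372-32692947 had ATAC scores of 128.85 and 159.23 in EPC and 65.57 in CPC list 2. Its ChIP scores were 164.77, 118.14 and 273.36 in induced lists 1 to 3, with no peak in list 4. Inside Pdgfb, which encodes the growth factor by which endothelial cells recruit pericytes, the region chr15:80004287-80005461 had EPC scores of 276.68 and 106.61 and no CPC peak. ChIP scores there were 130.1, 42.92 and 295.62 in lists 1 to 3, and list 4 had no peak.

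Inside Col4a1, a gene of basement membrane collagen, chr8:11308182-11309256 had EPC scores of 99.08 and 125.74 and 70.43 in CPC list 1. Its ChIP peak was in all 4 induced lists, at 126.32, 98.38, 434.93 and 53.41. The highest ChIP scores on any of the 21 were at chr1:35115248-35116262, with 191.42, 215.88, 1034.48 and 161.47. No protein-coding gene lay within 50 kb of that region, and its EPC scores were 110.31 and 133.16 with no CPC peak.

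In all, 7 of the 21 had a peak in all 4 induced ChIP lists. Besides Col4a1 and chr1:35115248-35116262 these were regions inside Pde11a, which encodes a cyclic nucleotide phosphodiesterase, inside Trak1, an adaptor of mitochondrial transport, and inside Btbd8, and at chr13:50973211-50974810 and chr1:75829646-75830406 with no protein-coding gene within 50 kb. An eighth member with 4 induced ChIP peaks, chr3:58271404-58271946, also had a peak in all 4 uninduced lists and so was no induced site. Further sites lay inside Mcc, Creb3l2 (a bZIP factor of the endoplasmic reticulum), Mrps18a (a protein of the mitochondrial ribosome) and Bag3 (a co-chaperone). The other named genes were only the nearest to a site. They were Nptx1 (a neuronal pentraxin, 4.35 kb away), Fem1c (a ubiquitin ligase adaptor, 7.48 kb) and Tekt5 (12.5 kb). Farther away were Purg (25.9 kb) and Arf6 (a GTPase of membrane traffic, 48.8 kb), and 6 regions had no protein-coding gene within 50 kb. Of the 21, 13 had a peak in 1 induced CPC list and 8 had none.

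Members lay mostly away from promoters. A protein-coding gene body held 878 members (48.7%), 516 (28.6%) lay outside but within 50 kb of a gene, and 408 (22.6%) had no protein-coding gene within 50 kb. Over all ATAC regions 59.6% were inside a gene and 16% had none within 50 kb. The median distance from a member's centre to the nearest transcription start was 25.4 kb (quartiles 8.60 and 73.6 kb), for 1748 members; the 54 on chromosome 18 were not used here. It was 14.4 kb over all regions and 0.312 kb for regions open in all 8 lists. Within 1 kb of a start lay 96 members (5.49%), beside 23.3% of all regions.

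The other new regions were placed much like the members. CPC-alone regions had a median distance of 31.4 kb and 5.32% within 1 kb, and regions new in both had 34.2 kb and 3.69%. Members took from 2.83% of the ATAC regions on chromosome 4 to 4.31% on chromosome 15, leaving out the Y chromosome with 46 regions. Of 1781 neighbouring pairs of members 39 were within 10 kb, and the median gap was 827 kb. These gaps are given without those of other regions.

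**Figure D4:**
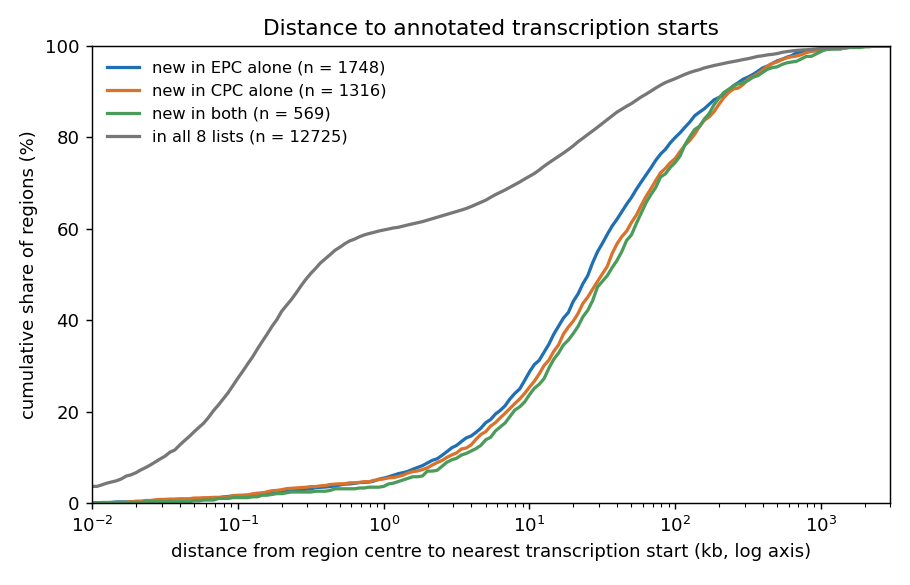
Distance from the centre of a region to the nearest annotated transcription start in kb (horizontal, log axis) against the cumulative share of regions (vertical, %), for 4 sets. The 3 sets of new regions run close together, with medians of 25.4 kb, 31.4 kb and 34.2 kb, while regions open in all 8 lists have a median of 0.312 kb.

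Each member was assigned to the protein-coding genes it overlapped, or else to the nearest within 50 kb. This gave 1253 of 21883 genes (5.73%), of which 1123 had 1 member, 115 had 2, 11 had 3 and 4 had 4. Regions new in CPC alone were assigned to 932 genes (4.26%). The share of genes with a member went up with the number of ATAC regions at the gene, from 1.08% with 1 region to 11.2% with 3 or 4, 21.6% with 5 to 9 and 41.1% with 10 or more. Gene lists are read beside this, since they differ in the number of regions per gene. The median number of ATAC regions per gene was 6 in the vessel guidance list and 5 in the endothelial list, against 1 over all protein-coding genes. It was 3 to 4.5 in the early mesoderm, endoderm, SOX, Hippo, blood, Notch, neural and cardiac lists. In the pluripotency, smooth muscle and housekeeping lists it was 2 or lower.

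The 4 genes with 4 members were Adamts18, Agbl4, Dcc (the netrin receptor) and Inpp4b (a phosphoinositide phosphatase). At Adamts18 the members made up 4 of 6 ATAC regions, with EPC list 1 scores of 205.83, 191.48, 729 and 52.13 and list 2 scores of 142.69, 187.23, 711.83 and 64.79. Only 1 of these members lay inside the gene, and the others were 34.4 to 46.9 kb away. No region there was new in CPC alone. Agbl4, 1267 kb long, had 4 among 27 regions, Dcc, 1098 kb long, had 4 among 12, and Inpp4b, 792 kb long, had 4 among 15. All 4 lay inside the gene at Agbl4 and at Dcc, but only 1 did at Inpp4b. Among the 11 genes with 3 members were Akap13, Dnah5, Foxn3, Galntl6, Ldlrad3, Nav2, Pcdh9, Tiam1, Vav3 and Zfpm2, whose lengths ran from 236 to 1140 kb. Zfpm2, which encodes a cofactor of GATA factors, had 3 members among 8 regions.

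Tiam1, which encodes an exchange factor for Rac, had 3 members, at EPC scores of 72.46 and 122.33, 123.96 and 131.93, and 215.89 and 266.02. The second lay inside the gene, the first 38.8 kb and the third 11.5 kb away. All 3 also had a peak in induced CPC list 1, at 54.92 to 80.38. Vav3, another exchange factor, had 3 members inside the gene, at 109.54 and 91.57, 129.22 and 183.96, and 95.38 and 65.68. None of these 6 members had an induced ChIP peak.

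Of all genes with 5 to 9 ATAC regions, 21.6% had a member. Among 32 endothelial genes (median of 5 ATAC regions) 5 (15.6%) had a member and 3 a CPC-alone region. They were Ets1, Flt4 (the VEGF receptor of lymphatic vessels), Vwf (von Willebrand factor), Nrp2 (a co-receptor for VEGF and semaphorins) and Acvrl1 (a receptor for BMP9). The member inside Nrp2 had EPC scores of 119.97 and 181.42 and a ChIP peak of 57.63 in induced list 1. The member 2.67 kb from Flt4 had 75.11 and 123.2 and no ChIP peak. Those inside Vwf and Acvrl1 had 56.77 to 86.4 and no ChIP peak. The genes Kdr, Cdh5, Tek and Fli1 had ATAC peaks in EPC before induction and no member.

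The genes of vessel guidance and VEGF signalling had a median of 6 ATAC regions, and 21.6% of all genes with 5 to 9 regions had a member. In this list, 5 of 23 genes (21.7%) had a member and 7 a CPC-alone region. Plxna2, a semaphorin receptor, had the highest member there, at 181.99 and 379.8. Sema3a, which encodes a secreted semaphorin, had 168.13 and 176.53 at a region 26.4 kb away. Sema6a, Unc5b (a netrin receptor) and Spry4 (an inhibitor of growth factor signalling) had members of 56.66 to 106.75. None of these 5 members had a ChIP peak.

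Of 16 Notch pathway genes 2 (12.5%) had a member, beside 11.2% of all genes with 3 or 4 ATAC regions. None of the 16 had a CPC-alone region, beside 4.26% of all protein-coding genes. Hey2, a transcriptional repressor induced by Notch, had a member 5.69 kb away with EPC scores of 177.63 and 117.47 and no CPC peak. ChIP peaks lay on it in induced lists 3 and 4, at 177.97 and 51.43. Notch1 had 2 members inside the gene, and the higher, at 124.15 and 104.73, had a ChIP peak of 61.97 in list 3. Of 17 Hippo pathway genes 3 (17.6%) had a member and 1 a CPC-alone region, beside a member at 11.2% of all genes with 3 or 4 regions. Those 3 were Yap1 (the coactivator), Lats2 (its kinase) and Ccn1 (a target gene), at EPC scores of 65.62 to 104.73. The Yap1 member lay inside the gene, the Lats2 member 9.1 kb and the Ccn1 member 13.5 kb away. The whole promoter window of another gene, Gm40164, lay inside the Ccn1 member.

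Of 21 endoderm genes 4 (19.0%) had a member and 2 a CPC-alone region, beside a member at 11.2% of all genes with 3 or 4 regions. Lamb1, a laminin chain of basement membranes, had a member 17.8 kb away at 209.34 and 191.96, with ChIP peaks of 77.48 in list 1 and 124.27 in list 3. Foxa2, a forkhead factor of endoderm, had a member 18.6 kb away at 206.09 and 98.54 without a ChIP peak. Lama1, another laminin chain, had 82.73 and 187.49, and Col4a1 is described above. Laminins and type IV collagen are also made by endothelial cells.

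Of 19 SOX genes 4 (21.1%) had a member (Sox1, Sox5, Sox13 and Sox15), the same number as for CPC-alone regions. Of all genes with 3 or 4 regions 11.2% had one. Only the Sox13 member had a ChIP peak, at 59.03 in list 3. Cardiac genes had 2 of 24 (8.33%), Tnni1 and Myh7 of slow muscle, at 53.6 to 102.94, against 7 with a CPC-alone region. Blood genes had 1 of 20 (5%), Zfpm1, a cofactor of GATA1, with 71.05 and 197.67. The neural list had Sox1 and Pou3f2 of 14 (14.3%), and smooth muscle had Myh11 of 10 (10%). No member was assigned to any of the 16 early mesoderm, 15 pluripotency or 14 housekeeping genes, beside 5.73% of all protein-coding genes. The median number of ATAC regions in those lists was 3, 2 and 1.5. Of all genes, 4.45% with 2 regions and 1.08% with 1 region had a member. The gene counts of the lists were not tested against the CPC-alone counts or against genes with as many ATAC regions.

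**Figure D5:**
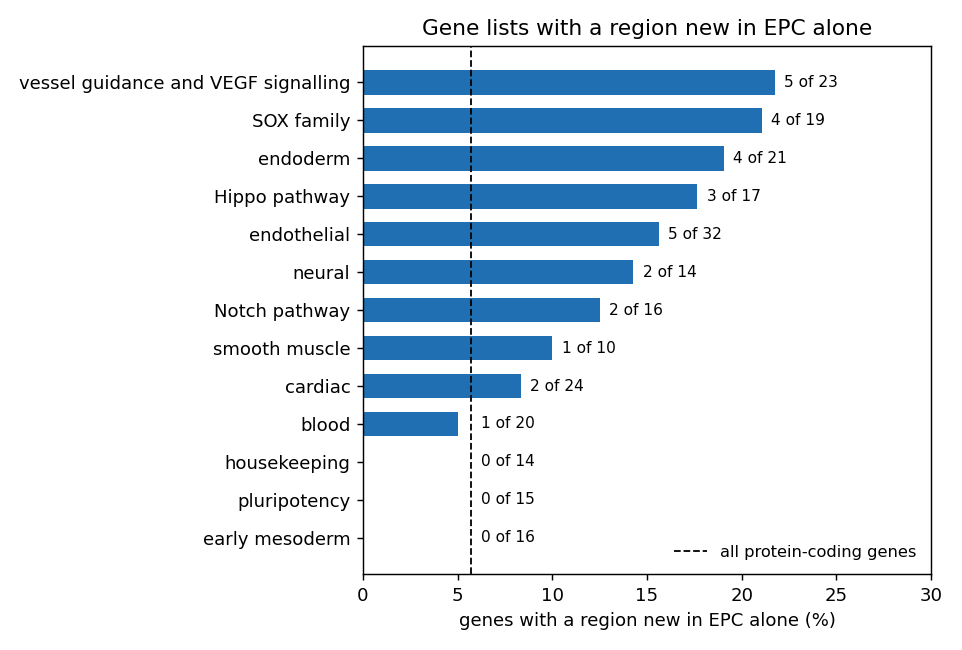
Share of the genes of each list with a region new in EPC alone (horizontal, %), for 13 lists (vertical), with the number of genes beside each bar and all protein-coding genes (5.73%) as the dashed line. The list of vessel guidance and VEGF signalling has the highest share of those shown at 21.7% (5 of 23), and 3 lists have none. The dashed line takes no account of the number of ATAC regions per gene, with a median of 6 in that list and 1 over all genes.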

How the data were processed

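Peak lists from 8 ChIP-seq, 1 input and 8 ATAC-seq samples were used, and the 4 RNA-seq samples were not analysed here. Per the submitters' processing notes the build was GRCm38 (mm10), and MACS 1.4, Trimmomatic, Bowtie2, bedtools and SAMtools are listed without their roles. Each list holds peak positions and a score per peak as deposited by the authors, and no reads, so the depth is unknown. The authors' 4 derived lists hold positions only. The members and all lists were chosen with earlier results of these data known.

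Peaks were merged, counted and tested in Python 3.11.15 with numpy 2.4.6, pandas 2.3.3 and scipy 1.17.1, and figures drawn with matplotlib 3.10.9. A ChIP peak was on a region where they overlapped by 1 bp or more. Uninduced ChIP lists 2 and 4 were averaged into 1 library. Tests were two-sided exact permutation tests over libraries. Share intervals are exact (Clopper-Pearson) at 95%, and the limit for a count of 0 is 3 counts. Genes and start sites came from RefSeq tables of GRCm38.p6. The start table has no chromosome 18 entries here and covers 79.9% of protein-coding genes. The rule for members and the counting of overlaps were tested on simulated ATAC lists, and the permutation tests on example values. ChIP lists were not simulated.

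Named are the 10 members of highest mean score, all members on an induced site, the genes with most members (15 with 3 or more, as ties passed 10), listed genes with a member, and the 5 members just inside and 5 regions just outside the rule. Alternatives were a score of 100, lists of equal length, other numbers of lists, a stricter overlap, input peaks left out, other gene distances and each replicate left out. A gene with 3 members and 1 gene list are not reported here.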

Additional observations from a re-analysis of the deposited data

Results flagged for a closer look

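In the mirror set of regions new in CPC alone, the share with a ChIP peak was 4.72% in induced ChIP list 3, against 0.516% to 1.18% in the other 3 induced lists. This list stood apart because its gap to the next list took up 0.842 of the range of the 4 values, above Dixon's 95% critical value for 4 samples. Induced list 3 was also the longest, with 2807 peaks. Chance gives such a gap in about 1 of 20 groups. The value touches the comparison of EPC-alone with CPC-alone regions, which is given in the report with and without that list.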

How the results depend on the processing

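The number of members fell from 1802 to 398 at a score of 100 or more and to 1088 with ATAC lists of equal length, and leaving out 1 ATAC library gave 1508 to 4719 (4719 without induced EPC list 1 and 3773 without list 2, since the rule then asks for 1 list). Members on an induced site went from 21 to 11 at a score of 100 or more, 8 with no induced CPC list, 7 with sites in all 4 induced lists and 3 with ChIP scores of 100 or more. Leaving out 1 ATAC library gave 13 (induced CPC list 2) to 29 sites, and 43 where an induced CPC list was left out and the remaining one ruled nothing out. With 4 uninduced ChIP lists the differences were 4.05 and 3.30 percentage points (exact permutation p = 0.0286, the smallest that 4 against 4 can give). That p counts uninduced lists 2 and 4 as separate libraries, though most peaks of list 4 began at the same base as in list 2. Leaving out 1 ChIP library gave differences of 1.92 to 5.11 and 2.23 to 3.93 percentage points. With ChIP lists of equal length they were 0.828 and 1.93, and with ChIP scores of 100 or more 0.763 and 1.96. Without input peaks they were 4.05 and 4.60. The difference between EPC-alone and CPC-alone regions was -2.03 without induced EPC list 1 and -1.63 without list 2 where the remaining list ruled nothing out, so that the CPC-alone set took in regions with a peak in both cell types. Over all libraries left out it ran from -2.03 to 4.40, and over bands of ATAC score from 0.912 to 4.65. Gene bodies alone gave 799 genes with a member and a distance of 10 kb gave 1022, against 1253.

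With the replicate block the ChIP differences stayed at 4.05 and 3.30, with an exact permutation p of 0.125, the smallest for 4 pairs. Same-numbered libraries did not deviate together (correlations 0.06, 0.05, -0.02 and -0.10). The numbers thus gave no sign of pairing, though correlations this small cannot settle whether the samples were paired. Peak lists without depth limit all counts: a member is a set of calls near or above a score of 50, and 4 against 3 libraries cannot pass 0.05.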
